A study of Mus musculus with 32 samples.

Results

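The ER stress and ATF4 amino acid response described here is a set of 35 genes among the 54087 listed in each deposited gene table. Its members were chosen by name: 20 belong to the response driven by the transcription factor ATF4, and 15 to the unfolded protein response of the endoplasmic reticulum (ER) and its chaperones. All 35 were found in the tables of all 32 libraries. The cells were purified Foxp3/GFP+ regulatory T cells (Tregs). They came from 2.5 month-old mice of strain C57BL/6 that carry the knock-in allele Foxp3-IRES-GFP, so every group had this reporter. Resting Tregs were compared with Tregs grown for 18 h or 36 h on plates coated with antibodies to CD3 and CD28; the medium held serum and 10 ng/ml of mouse IL-2. At each time the cultures had no agonist, or an agonist of TNFR2 (TNC-sc(mu)TNF80, named STAR2, 12 ng/ml), of 4-1BB (antibody 3H3, 10 µg/ml), of DR3 (its ligand TL1A, 12 ng/ml) or of OX40 (OX40L, 100 ng/ml). All 4 receptors belong to the tumour necrosis factor receptor superfamily and costimulate T cells. The doses were not matched between agonists. Each of the 11 groups had 3 libraries except the OX40 agonist at 18 h, which had 2. No group was cultured without stimulation, so antibody, IL-2, culture and time cannot be told apart in the comparison with resting cells. The labels do not say that replicates came from separate cultures or animals, and the p-values then measure only the spread between these samples, which may be technical.

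When amino acids run short, when misfolded proteins collect in the ER, or when other stresses strike, kinases phosphorylate the initiation factor eIF2, general translation slows, and the mRNA of Atf4 is translated more. ATF4 then activates genes for amino acid synthesis and uptake, for the charging of tRNAs and for stress control. A separate arm of the unfolded protein response runs from the sensor IRE1 (gene Ern1), which splices the Xbp1 mRNA, and another from ATF6, and both raise ER chaperones and enzymes that fold or dispose of secretory proteins. Activated T cells are known to grow and to need amino acids and one-carbon units, and much of the ATF4 response acts at the level of translation and protein, which the RNA levels here do not show. The gene tables do not separate spliced from unspliced Xbp1 mRNA.

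Bulk RNA was sequenced, and the authors deposited expected counts (reads estimated per gene) and TPM (a share of transcripts, scaled for transcript length). Total expected counts ran from 11880270 to 38083925 per library, and the resting libraries, at 11880270 to 15160995, were the shallowest group. Levels of 1 gene across libraries are given here in CPM, counts scaled for depth by TMM, and levels of different genes are compared only in TPM. Differences are log2 fold changes with their standard error from edgeR's quasi-likelihood test, and a gene is said to have risen or fallen where the Benjamini-Hochberg adjusted p over 14313 genes was below 0.05. Foxp3 stood at 520.2 ± 16.1 CPM (SD, n = 3) in resting Tregs, 582 ± 2.11 at 18 h and 369 ± 2.06 at 36 h without agonist, and none of 8 Treg markers was at 0 in any group. The summed level of 12 B and plasma cell markers, most of it Ighm, was 780 to 801 CPM in resting libraries, 306 to 332 at 18 h and 277 to 293 at 36 h without agonist. That sum was 383 to 412 CPM with the TNFR2 agonist and 433.5 to 438.7 with the 4-1BB agonist at 18 h. With no agonist 1 of the 12 was at 0 counts at each time. The sum of 10 myeloid markers was 11.7 to 14.2 CPM at rest, where 1 was at 0, and 1.68 to 3.13 at 18 h without agonist, where 4 were. The sum of 7 CD8 and NK cell markers was 34.4 to 38.6 CPM at rest, where 1 was at 0, and 44.1 to 47.5 at 18 h without agonist, where 3 were. Of these 7 only Nkg7 was higher at 18 h, at 39.2 ± 1.75 CPM against 18.4 ± 1.35 at rest. Cd8b1 went from 10.8 ± 1.06 to 6.16 ± 0.161 CPM, Cd8a from 2.39 ± 0.474 to 0.724 ± 0.11 and Tcrg-C1 from 3.17 ± 0.432 to 0.107 ± 0.0572. The part of these other cells in the results was not tested, and in bulk RNA fewer cells of a type and less RNA per cell cannot be told apart. In 6 libraries the transcript Gm42418, which lies over a ribosomal RNA repeat on chromosome 17, was above 10000 CPM. Replicates 1 and 2 of the 18 h cultures without agonist were among them. Results of agonists at 18 h are therefore also given without these libraries. The control then left at 18 h, replicate 3, was at 8114 CPM of Gm42418, and the agonist libraries left at 18 h were at 1407 to 6853. Leaving libraries out thus did not remove this difference between control and agonist libraries.

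In resting Tregs the ER branch held the most abundant members per length. Hspa5, which encodes the ER chaperone BiP, stood at 593 ± 25.7 TPM, Calr, the lectin chaperone calreticulin, at 439 ± 18.0, and Hsp90b1, the ER form of HSP90, at 259.9 ± 6.02 (SD, n = 3). Atf4 itself followed with 188 ± 4.68 TPM and Edem1, which hands misfolded glycoproteins to degradation, with 166 ± 5.39. Manf (141 ± 11.1 TPM) and the seryl-tRNA synthetase gene Sars (129.7 ± 2.59 TPM) did not differ beyond their SDs, and neither did Shmt2, Pdia6 and Pdia4, which lay between 89.7 and 95.2 TPM. At the low end Sesn2 (6.98 ± 0.875 TPM), Ern1 (4.69 ± 0.672), Atf5 (4.64 ± 0.315), Trib3 (3.38 ± 0.544) and Asns (3.15 ± 0.683) were all under 10 TPM, and Ern1 and Atf5 did not differ beyond their SDs. Chac1 had 1 count in the 3 resting libraries together, and Cth and Vldlr had 0. These 3 genes passed the filter on low counts through the cultured groups only, so counts of members are also given without them. After 18 h without agonist Calr (1000.0 ± 9.21 TPM) came before Hspa5 (848 ± 12.7), and the serine synthesis gene Phgdh, at 77.0 ± 9.87 TPM and place 12 at rest, took place 4 with 421 ± 10.5 TPM.

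Most genes of both branches rose after stimulation, and the median change was larger in the ATF4 branch. At 18 h without agonist, 17 of 20 ATF4 members had risen and 2 had fallen against resting cells, and 10 of 15 ER members had risen and 4 had fallen. The background was high: 40.9% of all genes tested rose and 40.1% fell. The median log2 fold change was 1.76 in the ATF4 branch and 0.93 in the ER branch, against −0.0079 over all genes tested. At 36 h the counts were 17 up and 2 down in the ATF4 branch and 10 up and 3 down in the ER branch, with medians of 2.08 and 0.90, while 42.4% of all genes tested rose and 42.1% fell. Without Cth, Chac1 and Vldlr, 15 of 17 ATF4 members had risen and 2 had fallen at 18 h, with a median of 1.74, and at 36 h these were 14 and 2, with a median of 1.73. For every member that rose or fell, the replicates of the 2 groups did not overlap; over all genes 41.2% had all replicates above and 40.5% all below at 18 h, and 42.4% and 42.1% at 36 h.

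**Figure D1:**
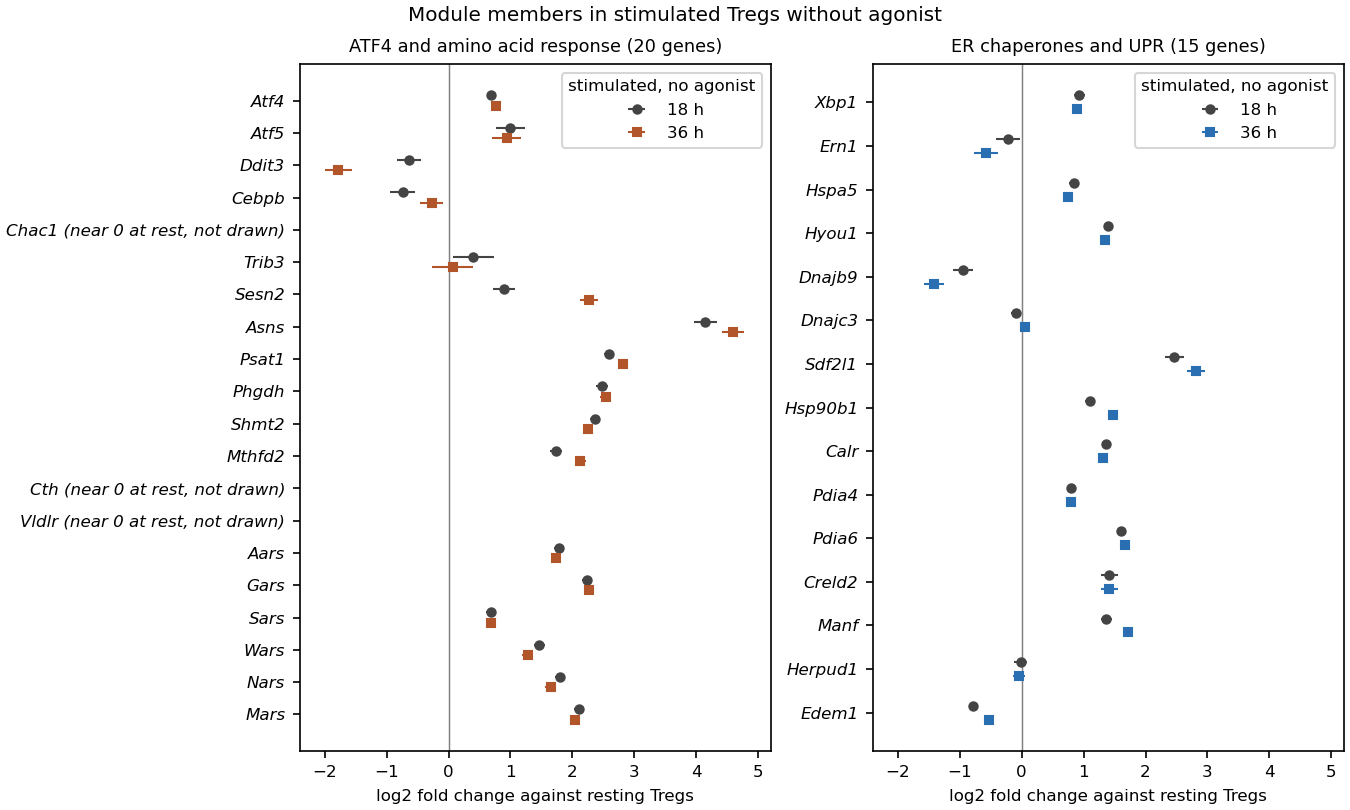
Each point is the log2 fold change of 1 gene in Tregs stimulated without agonist against resting Tregs, at 18 h (circles) and 36 h (squares), with its 95% confidence interval from edgeR's quasi-likelihood fit (3 libraries per group). Asns lies farthest to the right in the ATF4 branch at 4.59 and Sdf2l1 in the ER branch at 2.81. Ddit3, Cebpb, Ern1, Dnajb9, Edem1 and Herpud1 lie to the left of 0 at both times, Herpud1 with intervals that include 0. Chac1, Cth and Vldlr are not drawn because they had 1 or 0 counts at rest.

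The transcription factors of the ATF4 branch did not move together. Atf4 (ENSMUSG00000042406, mm10 chromosome 15, 80255184 to 80257541) stood at 171, 163 and 165 CPM in the resting libraries, 262, 282 and 262 at 18 h and 284, 279 and 284 at 36 h. All stimulated libraries were above all resting ones, with a log2 fold change of 0.69 ± 0.035 at 18 h (adjusted p = 1.7e-23) and 0.76 ± 0.035 at 36 h (adjusted p = 1.94e-25) by edgeR's quasi-likelihood test. Atf5, an ATF4 target and relative, rose from 4.07 ± 0.25 to 8.12 ± 0.864 and 7.78 ± 0.375 CPM, log2 1.00 ± 0.12 and 0.94 ± 0.12; its exons overlap Il4i1 and Nup62 on the other strand, and the library kit does not mark strand. Ddit3, which encodes CHOP, the factor tied to cell death under lasting ER stress, fell. Its levels were 14.96, 13.9 and 12.8 CPM at rest, 10.3, 7.65 and 8.90 at 18 h and 4.36, 3.94 and 3.90 at 36 h, and the 3 groups did not overlap. The log2 fold change was −0.64 ± 0.099 (adjusted p = 1.18e-07) at 18 h and −1.78 ± 0.11 (adjusted p = 2.57e-20) at 36 h. An exon of Ddit3 overlaps Mars on the opposite strand, and Mars rose, so reads in the overlap could be assigned to either gene. Cebpb, whose product C/EBPβ pairs with ATF4, fell from 19.7 ± 0.706 to 11.8 ± 0.808 CPM at 18 h (log2 −0.74 ± 0.1) and stood at 16.3 ± 1.65 at 36 h (log2 −0.27 ± 0.094). The call at 36 h was lost without replicate 2 of the 36 h cultures. Exons of Cebpb overlap Tmem189 on the other strand, so some reads could belong to that gene.

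Stress targets and feedback genes of ATF4 differed in time. Sesn2, which encodes Sestrin-2, a leucine-binding restraint on mTORC1, stood at 10.8, 13.0 and 13.8 CPM at rest, 23.8, 22.6 and 23.5 at 18 h and 60.3, 56.2 and 64.0 at 36 h. It rose in each step, by log2 0.90 ± 0.086 (adjusted p = 3.91e-13) at 18 h against rest and by a further 1.37 ± 0.063 (adjusted p = 1.76e-23) from 18 h to 36 h. Chac1, a glutathione-degrading enzyme, had 1 count over the resting libraries, 45 at 18 h and 98 at 36 h. Its depth-scaled ratio to rest was 34.7 (95% counting interval 5.92 to 1402) at 18 h and 62.6 (10.98 to 2499) at 36 h. These intervals cover counting error only. Trib3, a pseudokinase that dampens ATF4 and CHOP, was at 2.83, 3.49 and 3.44 CPM at rest, 5.09, 4.18 and 3.71 at 18 h and 3.25, 3.63 and 3.37 at 36 h. Its difference of log2 0.40 ± 0.16 at 18 h passed the test (adjusted p = 0.0221) but not in DESeq2 or without resting or 18 h replicate 1, and at 36 h it was 0.069 ± 0.17 with overlapping groups.

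All amino acid and one-carbon enzymes rose, Asns the most among those with more than 1 count at rest. Asns, which makes asparagine and is a standard readout of ATF4, stood at 2.21, 2.70 and 2.58 CPM in the resting libraries, 43.1, 44.1 and 45.8 at 18 h and 57.2, 64.3 and 59.1 at 36 h. Every stimulated library was above every resting one, with a log2 fold change of 4.15 ± 0.093 (17.7-fold, adjusted p = 4.67e-38) at 18 h and 4.59 ± 0.088 (24.0-fold, adjusted p = 3.86e-41) at 36 h. Phgdh and Psat1 catalyse the first steps of serine synthesis. Phgdh went from 59.7 ± 3.45 to 333 ± 0.786 and 347 ± 15.1 CPM, log2 2.48 ± 0.045 and 2.54 ± 0.045, and Psat1 from 49.5 ± 1.21 to 297 ± 4.98 and 349 ± 6.08, log2 2.58 ± 0.038 and 2.82 ± 0.037. Shmt2 and Mthfd2 carry the mitochondrial one-carbon pathway that starts from serine. Shmt2 rose from 80.2 ± 3.16 to 413 ± 4.94 and 380.4 ± 5.43 CPM (log2 2.37 ± 0.036 and 2.25 ± 0.036), and Mthfd2 from 40.9 ± 1.16 to 136 ± 0.932 and 178 ± 3.99 (log2 1.74 ± 0.046 and 2.13 ± 0.045). Cth, the last enzyme of cysteine synthesis from methionine, had 0 counts in each resting library, 36, 32 and 33 in the 18 h libraries and 111, 145 and 159 in the 36 h libraries. Against a floor of 3 counts over the resting group it was at least 26.0-fold higher at 18 h and at least 88.4-fold higher at 36 h. Vldlr, a lipoprotein receptor that ATF4 can induce, had 0 counts at rest and at 18 h and 7, 2 and 6 at 36 h, at least 3.2-fold higher than at rest.

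The 6 tRNA synthetase members rose together. Gars stood at 73.6, 72.4 and 64.6 CPM at rest, 324, 333 and 333 at 18 h and 337, 348 and 335 at 36 h, log2 2.23 ± 0.04 and 2.27 ± 0.04. The other 5 also rose at 18 h, Mars by log2 2.11 ± 0.043, Nars by 1.80 ± 0.042, Aars by 1.78 ± 0.038, Wars by 1.47 ± 0.044 and Sars by 0.68 ± 0.042, and their differences at 36 h lay between 0.69 and 2.04. Sars rose least from the highest resting level of the 6, 129.7 ± 2.59 TPM, and stood at 185 ± 7.16 at 18 h, below Gars (259 ± 4.72) and Nars (214 ± 3.19). Aars shares exon sequence with Exosc6 on the same strand, and reads there could belong to either gene.

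C/EBP-ATF response elements, composite sites that ATF4 can bind, were searched in RefSeq promoter windows (250 bases before to 50 after a start, GRCm38.p6, the patched form of mm10) because these members rose together. The 8 letters searched were TGATGNAA on either strand. Windows were used for 28 of the 35 members, 15 of the ATF4 branch and 13 of the ER branch, and none was found for Cth, Wars, Nars, Mars, Hyou1 and Manf. The letters occurred in 5 ATF4 members (Chac1, Trib3, Asns, Vldlr and Gars) and 1 ER member (Herpud1), and in 3.97% of all 32851 windows. Here and for the elements below, a member counts if any of its windows matches, whereas the share is per window. The 2 are therefore not in the same unit. The Trib3 match lies after its start. The other matches lie before the RefSeq start of their window, but those of Asns and Vldlr are within the span of the gene in GENCODE M21. Stretches are shown for members named above, 5′ to 3′ on the strand of the gene, with the match in capitals (where the element lies on the other strand, its reverse complement is in capitals).
Chac1, chr2:119351029-119351076, plus strand: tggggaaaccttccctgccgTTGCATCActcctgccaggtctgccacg
Asns, chr6:7693214-7693243, minus strand: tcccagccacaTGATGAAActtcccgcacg
Vldlr, chr19:27216809-27216838, plus strand: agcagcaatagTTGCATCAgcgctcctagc
Gars, chr6:55037951-55037998, plus strand: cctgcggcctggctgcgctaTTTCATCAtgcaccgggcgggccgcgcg
Of these 4, Asns, Chac1 and Gars rose at both times and Vldlr was counted only in cultured cells. A match describes these letters and is not a measured binding site: Psat1, Phgdh, Shmt2, Mthfd2 and Sesn2 rose with no match in their windows, and Trib3, which has one, did not differ from rest at 36 h by the test.

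In the ER branch the factor of the IRE1 arm rose, and its sensor fell. Xbp1 (ENSMUSG00000020484, mm10 chromosome 11, 5520659 to 5525893) stood at 71.7, 74.5 and 70.7 CPM at rest, 142, 136 and 136 at 18 h and 137, 132 and 135 at 36 h. Its total mRNA rose by log2 0.93 ± 0.042 (adjusted p = 2.08e-25) and 0.90 ± 0.042 (adjusted p = 6.05e-25). Ern1 was at 15.9, 13.5 and 14.2 CPM at rest, 12.9, 11.7 and 12.9 at 18 h and 9.65, 9.63 and 9.90 at 36 h. It fell, with a log2 fold change of −0.58 ± 0.097, at 36 h (adjusted p = 6.27e-07), and its difference at 18 h (−0.21 ± 0.096, adjusted p = 0.0392) was lost when resting replicate 1 or replicate 1 or 2 of the 18 h cultures was left out.

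Most chaperones and folding enzymes rose. Hspa5 stood at 588, 577 and 549 CPM at rest, 994, 1035 and 1034 at 18 h and 973, 938 and 953 at 36 h. It rose by log2 0.84 ± 0.035 and 0.74 ± 0.035, and was above rest in all stimulated libraries. Its partners differed: Sdf2l1, a small ER protein that stabilises substrate binding, rose from 11.2 ± 0.434 to 61.6 ± 3.90 and 78.6 ± 4.82 CPM (log2 2.46 ± 0.077 and 2.81 ± 0.074), and Hyou1, the exchange factor of BiP, by 1.40 ± 0.034 and 1.35 ± 0.034. Dnajb9, the co-chaperone ERdj4 that restrains IRE1, fell from 25.3 ± 0.506 to 13.2 ± 0.35 and 9.47 ± 0.459 CPM (log2 −0.94 ± 0.081 and −1.42 ± 0.083). Dnajc3, or P58IPK, which restrains eIF2 kinases, was at 142 ± 2.92 CPM at rest, 134 ± 0.708 at 18 h and 147 ± 5.35 at 36 h. Its small difference at 18 h (log2 −0.088 ± 0.04, adjusted p = 0.0402) was lost without any of the 3 replicates of the 18 h cultures or resting replicate 2.

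Calr rose by log2 1.36 ± 0.035 and 1.31 ± 0.035 and Hsp90b1 by 1.10 ± 0.035 and 1.47 ± 0.035. The protein disulfide isomerases Pdia6 and Pdia4 rose by 1.60 ± 0.035 and 0.80 ± 0.036 at 18 h, and by 1.67 ± 0.035 and 0.79 ± 0.036 at 36 h. Pdia6 stood at 88.8, 89.97 and 82.6 CPM at rest and at 263, 265 and 267 at 18 h, well apart. Creld2 and Manf, small ER proteins that can be secreted under stress, rose by 1.42 ± 0.069 and 1.37 ± 0.043 at 18 h and by 1.41 ± 0.068 and 1.72 ± 0.042 at 36 h; exons of Manf overlap Rbm15b, and those of Pdia6 overlap Atp6v1c2, so some reads could belong to those genes. Of the genes that dispose of misfolded proteins, Edem1 fell and Herpud1 did not pass the test. Edem1 stood at 328, 329 and 328 CPM at rest, 190.2, 192 and 189 at 18 h and 233, 228 and 224 at 36 h, with every stimulated library below every resting one (log2 −0.79 ± 0.032 and −0.52 ± 0.031). Herpud1, a scaffold of the ER disposal complex, was at 55.0, 57.9 and 59.8 CPM at rest, 56.1, 57.5 and 56.9 at 18 h and 56.4, 58.2 and 53.0 at 36 h, which overlap, with log2 differences of −0.016 ± 0.051 (95% interval −0.12 to 0.086) and −0.042 ± 0.05 (−0.14 to 0.058).

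The ER stress response element (ERSE), at which ATF6 with NF-Y can act, was searched in the same windows as CCAAT and CCACG with 9 bases of any kind between them, on either strand. It occurred in 6 ER members, Hspa5, Dnajc3, Hsp90b1, Calr, Pdia6 and Creld2, in none of the ATF4 members, and in 0.119% of all windows. Herpud1 held instead the related ERSE-II (ATTGG and CCACG with 1 base between, 0.0365% of windows). The element TGACGTGG, known from targets of XBP1, was in no member window and in 0.676% of all windows. These stretches are shown because the 6 genes share the element; the match is in capitals, on the strand of the gene, and Hsp90b1 has a pair of them.
Hspa5, chr2:34772020-34772048, plus strand: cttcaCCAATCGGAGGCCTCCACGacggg
Hsp90b1, chr10:86705618-86705676, minus strand: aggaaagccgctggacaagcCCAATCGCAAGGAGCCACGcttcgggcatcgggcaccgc
Hsp90b1, chr10:86705513-86705571, minus strand: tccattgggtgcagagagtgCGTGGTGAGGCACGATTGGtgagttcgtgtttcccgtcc
Calr, chr8:84847055-84847113, minus strand: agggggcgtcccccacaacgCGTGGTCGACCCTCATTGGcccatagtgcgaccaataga
Pdia6, chr12:17266471-17266529, plus strand: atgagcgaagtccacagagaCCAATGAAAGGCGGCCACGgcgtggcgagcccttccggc
Creld2, chr15:88819500-88819558, plus strand: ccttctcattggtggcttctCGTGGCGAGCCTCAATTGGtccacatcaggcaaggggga
Dnajc3, chr14:118937807-118937865, plus strand: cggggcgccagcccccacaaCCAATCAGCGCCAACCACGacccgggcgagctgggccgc
Herpud1, chr8:94386357-94386407, plus strand: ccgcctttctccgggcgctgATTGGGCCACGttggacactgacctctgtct
The Hspa5 match lies before its RefSeq start but within the span of the gene in GENCODE M21. Of the 6 genes with the first element, Hspa5, Hsp90b1, Calr, Pdia6 and Creld2 rose at both times, and Dnajc3 did not. Sdf2l1, Xbp1 and Pdia4 rose with no exact match in their windows. No match says only that these letters are not in this window.

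Other genes of the pathways were counted from lists chosen by function. Of 63 other genes of the integrated stress response and amino acid metabolism that were tested (67 listed), 50 had risen and 10 had fallen at 18 h, with a median log2 fold change of 1.57, and 50 and 9 at 36 h. All 14 other tRNA synthetases had risen at both times, and of 23 genes of amino acid supply and one-carbon metabolism 21 had risen and 1 had fallen at 18 h. The other parts of this list were more mixed. Of 8 tested stress targets 3 had risen and 4 had fallen at 18 h (median −0.031), and 4 and 4 at 36 h (median −0.13). At 18 h 3 of 6 tested factors had risen and 2 had fallen, and 9 of 12 kinase and phosphatase genes had risen and 3 had fallen. Bcat1, which transaminates branched-chain amino acids, went from 9.64 ± 0.789 to 206 ± 7.39 CPM at 18 h, and the glycine transporter gene Slc6a9 from 0.229 ± 0.0198 to 5.02 ± 0.522 CPM. The stress factor Atf3 rose from 0.232 ± 0.0882 to 29.9 ± 1.63 CPM (log2 6.99), whereas Ppp1r15a, which encodes the eIF2 phosphatase subunit GADD34, fell from 288 ± 9.91 to 24.7 ± 1.80 CPM (log2 −3.54) and the mTORC1 inhibitor gene Ddit4 from 189 ± 5.52 to 37.5 ± 1.06 CPM (log2 −2.33). Of 74 other tested genes of the ER (76 listed), 48 had risen and 15 had fallen at 18 h (median 0.47) and 49 and 17 at 36 h (median 0.63). Within this list 17 of 21 chaperone and folding genes and 23 of 27 genes of translocation and traffic had risen at 18 h. Of the genes of ER-associated degradation 5 of 17 had risen and 7 had fallen. Of the tested sensors and factors 3 of 9 had risen and 4 had fallen at 18 h (median −0.33). Over all genes tested 40.9% rose and 40.1% fell at 18 h, and 42.4% and 42.1% at 36 h. Ero1l, an oxidase that recharges disulfide isomerases, rose from 34.6 ± 1.43 to 104 ± 1.68 CPM, and Herpud2, a relative of Herpud1, fell from 72.3 ± 5.41 to 37.5 ± 1.78 CPM.

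Between 18 h and 36 h without agonist, 8 ATF4 members rose and 4 fell, and 5 ER members rose and 3 fell, while 25.6% of all genes tested rose and 26.6% fell. Without Cth, Chac1 and Vldlr, 5 of 17 ATF4 members rose and 4 fell, with a median log2 difference of 0.0081. In the ATF4 branch Sesn2 rose, as above, and Cth went from 101 to 415 counts, a depth-scaled ratio of 3.4 (95% counting interval 2.73 to 4.27). Cebpb (log2 0.47 ± 0.098), Asns (0.44 ± 0.049), Mthfd2 (0.39 ± 0.038) and Psat1 (0.24 ± 0.032) rose. Chac1, from 45 to 98 counts, had a ratio of 1.8 (1.26 to 2.63) and lost the call without replicate 2 or 3 of the 18 h cultures. Ddit3 fell (log2 −1.14 ± 0.11, adjusted p = 3.56e-12), as did Wars (−0.18 ± 0.039), Nars (−0.15 ± 0.038) and Shmt2 (−0.12 ± 0.032); the Shmt2 call was lost without the libraries high in Gm42418. Vldlr, with 0 and 15 counts, also passed, a call that was lost without the libraries high in Gm42418. In the ER branch Hsp90b1 (0.37 ± 0.034), Sdf2l1 (0.35 ± 0.054), Manf (0.35 ± 0.037) and Edem1 (0.26 ± 0.032) rose, and Dnajc3 (0.14 ± 0.038) did so only with the libraries high in Gm42418 kept. Dnajb9 (−0.47 ± 0.088) and Ern1 (−0.36 ± 0.095) fell, and the fall of Hspa5 (−0.097 ± 0.034, adjusted p = 0.0159) was lost without replicate 2 or 3 of the 18 h cultures or replicate 2 of the 36 h cultures.

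The mean level of the ATF4 branch was further above rest than that of the ER branch in every stimulated group. The mean of log2(CPM + 0.5) over the 20 ATF4 members, less its resting mean, was 1.40 ± 0.044 (SD, n = 3) at 18 h and 1.59 ± 0.018 at 36 h without agonist, and over the 15 ER members 0.744 ± 0.014 and 0.774 ± 0.0081. With agonists the ATF4 mean ran from 1.43 (DR3) to 1.53 (TNFR2) at 18 h and from 1.64 (DR3) to 1.76 (TNFR2) at 36 h. The ER mean ran from 0.67 (TNFR2) to 0.736 (OX40) at 18 h and from 0.723 (4-1BB) to 0.763 (OX40) at 36 h. These means are descriptions without a test, and Chac1 and Cth, near 0 at rest, weigh in the ATF4 mean.

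**Figure D2:**
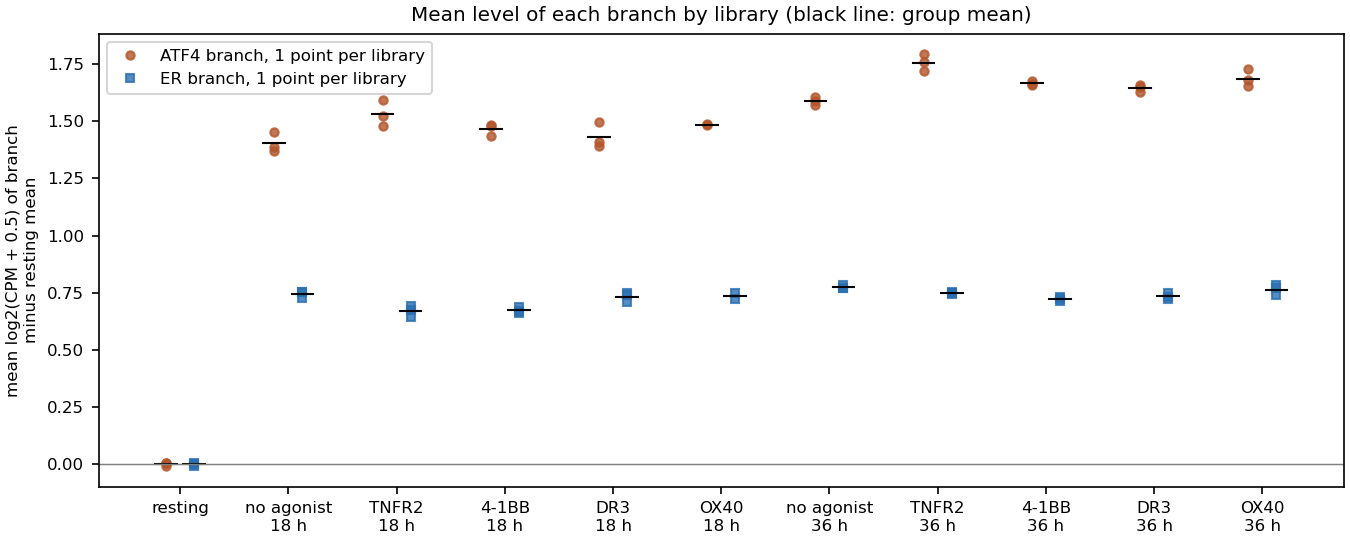
Each point is 1 library, and its height is the mean log2(CPM + 0.5) of a branch less the mean of the resting libraries; black lines are group means, circles the 20 ATF4 members and squares the 15 ER members. All stimulated libraries lie above rest in both branches, and the ATF4 points, with a group mean of 1.76 for the TNFR2 agonist at 36 h, lie above the ER points in every stimulated group.

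Against stimulated cells without agonist, the changes with agonists were small, and more ATF4 members rose than fell with each agonist at each time, except with DR3 at 18 h when the libraries high in Gm42418 were left out. With the TNFR2 agonist at 18 h, 9 ATF4 members rose and 1 fell, 0 ER members rose and 4 fell, and 15.8% of all genes rose and 15.3% fell. With the 4-1BB agonist at 18 h, 8 ATF4 members rose and 1 fell, 0 ER members rose and 5 fell, and 12.7% of all genes rose and 13.1% fell. With the DR3 agonist at 18 h, 4 ATF4 members rose and 2 fell, 0 ER members rose and 1 fell, and 9.66% of all genes rose and 9.94% fell. With the OX40 agonist at 18 h, 6 ATF4 members rose and 1 fell, 4 ER members rose and 3 fell, and 9.32% of all genes rose and 9.71% fell. Where no ER member rose, an unadjusted p below 0.05 was found for 0 (TNFR2), 1 (4-1BB) and 3 (DR3), and DESeq2 called 0, 1 and 1. The OX40 counts rest on 2 libraries: without replicate 2 of that group 5 members were called in place of 14, and without replicate 1 or 3 of the controls 8 were. Without replicate 1 of the 4-1BB group 9 members were called in place of 14. When the 6 libraries high in Gm42418 were left out, which leaves 1 control library at 18 h, 5, 5, 1 and 4 members were called with the TNFR2, 4-1BB, DR3 and OX40 agonists, of which 4, 2, 0 and 3 rose.

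With the TNFR2 agonist at 36 h, 8 ATF4 members rose and 0 fell, 1 ER member rose and 3 fell, and 13.0% of all genes rose and 11.9% fell. With the 4-1BB agonist at 36 h, 4 ATF4 members rose and 0 fell, 1 ER member rose and 5 fell, and 10.9% of all genes rose and 11.5% fell. With the DR3 agonist at 36 h, 4 ATF4 members rose and 0 fell, 1 ER member rose and 1 fell, and 6.97% of all genes rose and 6.39% fell. With the OX40 agonist at 36 h, 3 ATF4 members rose and 0 fell, 1 ER member rose and 1 fell, and 7.12% of all genes rose and 6.21% fell. No ATF4 member fell at 36 h: by an unadjusted p below 0.05 the counts were 0, 2, 0 and 0, and DESeq2 called 0 with each agonist. Across the 8 comparisons, 11 members never passed the test (Chac1, Asns, Psat1, Cth, Vldlr, Sars, Wars and Nars in the ATF4 branch, Dnajb9, Creld2 and Manf in the ER branch), as did 47.6% of all genes. For Asns the 8 log2 differences lay between −0.068 and 0.076 and their 95% intervals between −0.16 and 0.18, and for Psat1 between −0.052 and 0.071, with intervals between −0.12 and 0.14. Vldlr had 1 to 3 counts per agonist group at 18 h and 16 to 41 at 36 h, against 0 and 15 without agonist. Comparisons at 1 time share their control libraries.

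**Figure D3:**
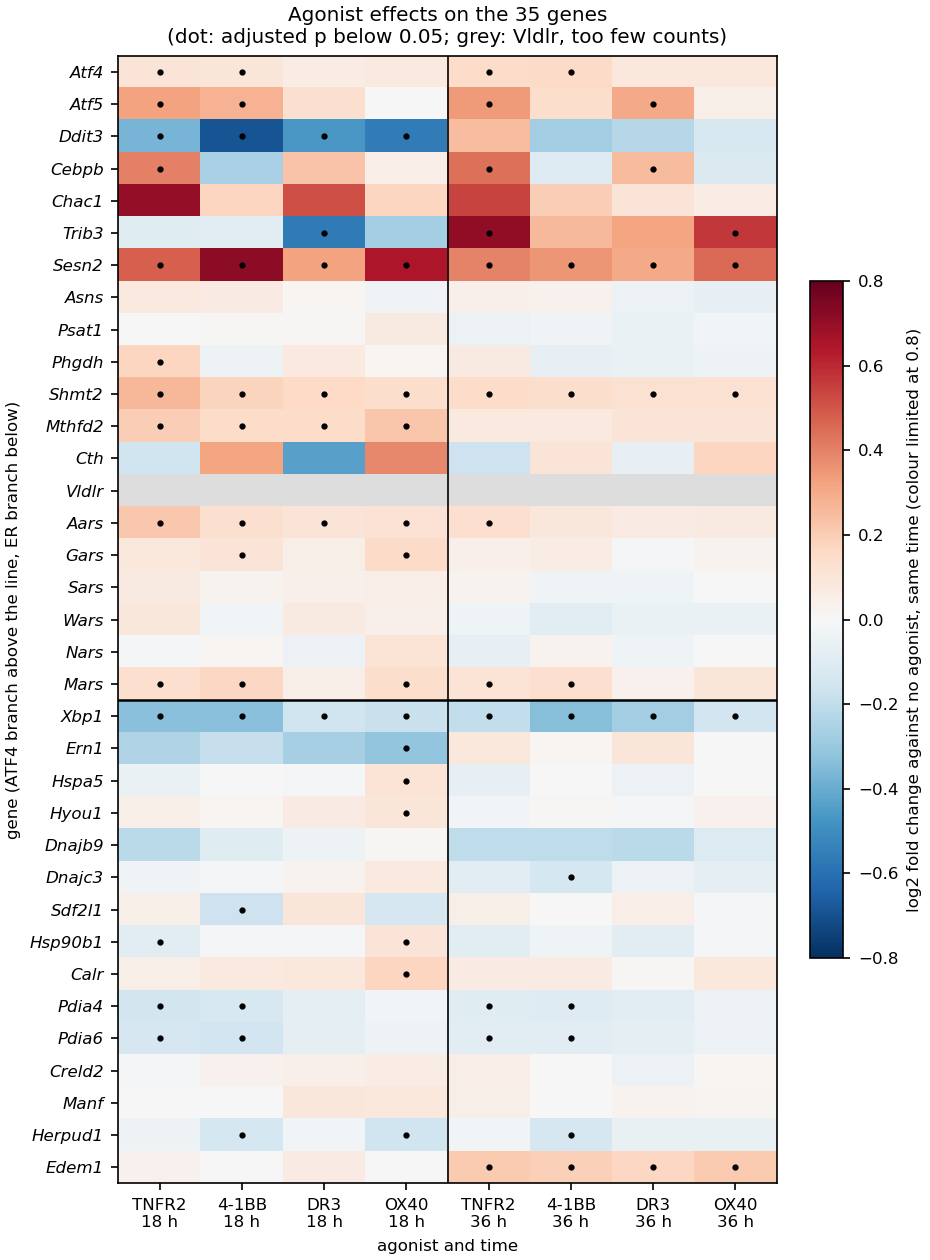
Colour gives the log2 fold change of each of the 35 genes (rows) with each agonist at each time (columns) against the cultures without agonist at that time, limited at 0.8 in either direction; a dot marks an adjusted p below 0.05, and Vldlr is grey because of its few counts. The rows of Sesn2 and Shmt2 carry 8 dots on red and the row of Xbp1 carries 8 dots on blue, while Asns and Psat1 carry none.

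Sesn2 and Shmt2 rose in all 8 comparisons, as did 315 genes in all, or 2.2% of those tested. Exons of Shmt2 overlap Ndufa4l2 on the other strand, so some reads could belong to that gene. Sesn2 at 18 h was at 23.8, 22.6 and 23.5 CPM without agonist, 30.6, 32.1 and 35.1 with the TNFR2 agonist, 35.1, 39.1 and 40.7 with 4-1BB, 27.9, 29.1 and 30.4 with DR3 and 35.1 and 38.0 with OX40. Every library with an agonist was above every control, with log2 fold changes of 0.48, 0.72, 0.32 and 0.65 in that order and adjusted p-values of 2.49e-07, 2.76e-12, 0.000819 and 2.66e-09 (edgeR). At 36 h the controls were at 60.3, 56.2 and 64.0 CPM and the group means with agonist ran from 74.3 (DR3) to 82.4 (OX40), log2 0.39, 0.35, 0.30 and 0.45. Shmt2 was at 417, 408 and 415 CPM without agonist at 18 h, 505, 507 and 476 with TNFR2, 469, 462 and 470.3 with 4-1BB, 460.1, 450.4 and 477 with DR3 and 445 and 465 with OX40, again with no overlap with the controls. Its log2 fold changes were 0.26, 0.18, 0.16 and 0.14 at 18 h and 0.15, 0.14, 0.12 and 0.12 at 36 h. Without the libraries high in Gm42418 the DR3 calls of both genes at 18 h and the OX40 call of Shmt2 at 18 h were lost. The latter was also lost without OX40 replicate 2, and the Shmt2 calls at 36 h were lost without DR3 replicate 1 for DR3 and without OX40 replicate 3 for OX40.

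Xbp1 fell in all 8 comparisons, as did 315 genes in all (2.2%). At 18 h it was at 142, 136 and 136 CPM without agonist, 113, 102 and 114 with TNFR2, 109, 113 and 107 with 4-1BB, 122, 124 and 125 with DR3 and 122 and 122 with OX40, all agonist libraries below all controls. At 36 h the controls were at 137, 132 and 135 CPM and the agonist groups at 116, 123 and 115 (TNFR2), 111, 103 and 104 (4-1BB), 111, 112 and 110.2 (DR3) and 124, 115 and 123 (OX40). The agonist libraries were again below the controls but above the resting level of 72.3 CPM. The log2 fold changes were −0.33, −0.34, −0.16 and −0.18 at 18 h and −0.20, −0.34, −0.28 and −0.15 at 36 h, with adjusted p-values of 1.95e-09, 1.2e-09, 0.00249 and 0.00202 and 0.000121, 8.36e-10, 4.07e-07 and 0.00418. The calls for DR3 and OX40 at 18 h and OX40 at 36 h were lost without the libraries high in Gm42418. Summed B and plasma cell markers, cells in which Xbp1 is abundant, were at 337 to 438.7 CPM with an agonist and 306 to 332 without at 18 h, and at 271 to 315 with and 277 to 293 without at 36 h; their part in the result was not tested.

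The disulfide isomerases fell with 2 of the agonists. Pdia6 was at 263, 265 and 267 CPM without agonist at 18 h, 242, 246 and 238 with TNFR2 and 232, 243 and 241 with 4-1BB, log2 −0.13 ± 0.032 and −0.15 ± 0.032. The groups did not overlap, and the change was small beside the rise from rest. Pdia4 differed by −0.15 ± 0.035 and −0.13 ± 0.034 at 18 h, and at 36 h both genes fell with these agonists by log2 differences between −0.091 and −0.10. The Pdia6 call with 4-1BB at 18 h held under every alternative, and the other 7 were each lost under at least 1. Pdia4 lost its call at 18 h with 4-1BB without control replicate 2 or 4-1BB replicate 2; at 36 h it lost the TNFR2 call without control replicate 1 or 2 or TNFR2 replicate 1, 2 or 3 and the 4-1BB call without control replicate 1 or 2 or 4-1BB replicate 1, 2 or 3. Pdia6 lost its 36 h calls without control replicate 1 or TNFR2 replicate 1 or 2, and without control replicate 1 or 4-1BB replicate 1, 2 or 3. With DR3 and OX40 the differences of both genes had the same sign and did not pass the test, from −0.025 to −0.09. Calr rose with OX40 at 18 h (0.17 ± 0.037, adjusted p = 0.000532); Hspa5, Hyou1 and Hsp90b1 also passed there at adjusted p-values of 0.0372, 0.0461 and 0.0494; Hspa5 and Hsp90b1 lost the call without control replicate 1, 2 or 3 or OX40 replicate 2, and Hyou1 without control replicate 1 or 3 or OX40 replicate 1 or 2.

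Ddit3 fell with all 4 agonists at 18 h, and Edem1 rose with all 4 at 36 h. Ddit3 at 18 h was at 10.3, 7.65 and 8.90 CPM without agonist, 7.16, 6.44 and 7.09 with TNFR2, 5.97, 5.12 and 5.58 with 4-1BB, 6.19, 6.74 and 6.48 with DR3 and 5.88 and 6.30 with OX40. All agonist libraries were below all controls, with log2 fold changes of −0.37, −0.69, −0.47 and −0.56. The TNFR2 call was lost without control replicate 1 or without the libraries high in Gm42418. At 36 h, with controls at 4.36, 3.94 and 3.90 CPM, the differences were 0.25, −0.28, −0.23 and −0.13 and none passed the test. Edem1 at 36 h was at 233, 228 and 224 CPM without agonist, 264, 264 and 262 with TNFR2, 257, 261 and 264 with 4-1BB, 261, 254 and 252 with DR3 and 257, 267 and 267 with OX40. All agonist libraries were above all controls (log2 0.21, 0.19, 0.16 and 0.21), and these 4 calls held under every alternative run on counts. In TPM, which RSEM scales by an effective length that varied between libraries for this gene, the groups stood at 106 ± 4.09 without agonist, 113 ± 4.24, 126 ± 5.84, 106 ± 8.86 and 123 ± 2.41, so that with TNFR2 and DR3 the difference from the controls was not beyond the SDs. At 18 h the Edem1 differences were 0.034, −0.0016, 0.064 and 0.0014, and none passed the test.

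**Figure D4:**
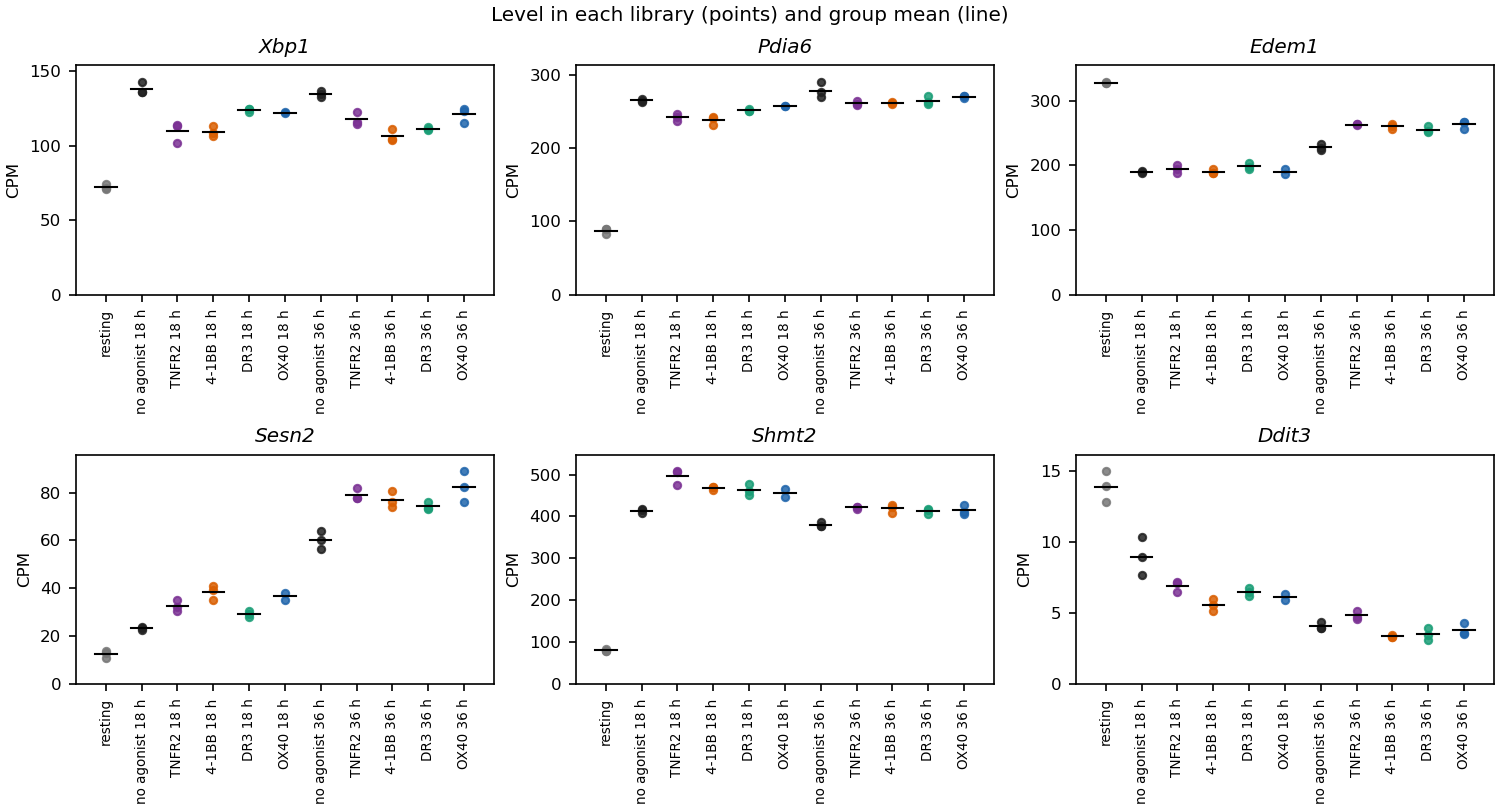
Points give the CPM of 6 members in each library of the 11 groups, and lines the group means; each panel has its own axis starting at 0. Xbp1 is lower with every agonist than without at both times (controls at 18 h 142, 136 and 136), Sesn2 and Shmt2 are higher, Ddit3 is lower at 18 h, Edem1 is higher at 36 h, and Pdia6 is lower at 18 h with the TNFR2 and 4-1BB agonists.

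The remaining ATF4 members gave scattered calls. By the counts given above, more of the calls at 18 h were lost without the libraries high in Gm42418 than are named here. Atf4 itself rose with the TNFR2 and 4-1BB agonists at both times, by log2 0.10 ± 0.034 and 0.096 ± 0.034 at 18 h and 0.15 ± 0.033 and 0.15 ± 0.033 at 36 h; the TNFR2 call at 18 h was lost without control replicate 1 or 3 or TNFR2 replicate 2, and the 4-1BB call at 18 h without control replicate 1 or 3 or 4-1BB replicate 1 or 2. Atf5 rose with TNFR2 and 4-1BB at 18 h (0.32 ± 0.095 and 0.28 ± 0.094) and with TNFR2 and DR3 at 36 h (0.34 ± 0.092 and 0.30 ± 0.09); the calls at 18 h were lost without control replicate 2 or TNFR2 replicate 2, and without control replicate 2 or 4-1BB replicate 1 or 3, and the DR3 call without control replicate 1 or 2 or DR3 replicate 3. Cebpb rose with TNFR2 at both times (0.40 ± 0.1 and 0.44 ± 0.089), and with DR3 at 36 h (0.25 ± 0.088, adjusted p = 0.0468, lost without control replicate 1 or 2 or DR3 replicate 1, 2 or 3). Mthfd2 rose with all 4 agonists at 18 h (0.19, 0.15, 0.15 and 0.22), but without the libraries high in Gm42418 only with OX40, and that call needed replicate 2 of the OX40 group. Among the tRNA synthetases Aars rose with all 4 at 18 h (0.21, 0.13, 0.10 and 0.12) and with TNFR2 at 36 h, Mars in 5 comparisons and Gars in 2; Sars, Wars and Nars did not pass in any. The Aars calls with TNFR2 at both times held under every alternative, those with DR3 and OX40 at 18 h were lost without any 1 of the controls, DR3 replicate 2 or 3, or either OX40 library, and the one with 4-1BB was lost without the libraries high in Gm42418. Mars lost its OX40 call without control replicate 1 or OX40 replicate 1, its TNFR2 call at 36 h without control replicate 2 or 3 or TNFR2 replicate 1 or 2 and its 4-1BB call at 36 h without control replicate 2, and its other calls without the libraries high in Gm42418. Gars lost its 4-1BB call at 18 h without control replicate 1 or 3 or 4-1BB replicate 1 and its OX40 call at 18 h without OX40 replicate 2. Phgdh rose with TNFR2 at 18 h (0.17 ± 0.039), a call that was lost without the libraries high in Gm42418. Trib3, at 3.25, 3.63 and 3.37 CPM in the 36 h controls, rose with TNFR2 (4.90, 6.60 and 5.19, log2 0.71 ± 0.14) and OX40 (5.19, 3.96 and 5.78, 0.56 ± 0.14) at 36 h, and fell with DR3 at 18 h (−0.56 ± 0.16, lost without control replicate 1 or DR3 replicate 1 or 2).

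In the ER branch Herpud1 fell with 4-1BB at both times (−0.14 ± 0.049 and −0.13 ± 0.048) and with OX40 at 18 h (−0.16 ± 0.055), and DESeq2 called none of these 3. The calls were lost without control replicate 2 or 3 or 4-1BB replicate 1, 2 or 3 at 18 h, without control replicate 1 or 2 or 4-1BB replicate 1, 2 or 3 at 36 h, and without control replicate 1, 2 or 3 or OX40 replicate 2 for OX40. Dnajc3 fell with 4-1BB at 36 h (−0.14 ± 0.038, adjusted p = 0.00515). Sdf2l1 with 4-1BB at 18 h (−0.17 ± 0.057) and Ern1 with OX40 at 18 h (−0.31 ± 0.11) fell; the calls were lost without control replicate 2 or 3 or 4-1BB replicate 1, and without control replicate 1 or 3 or OX40 replicate 1 or 2. Hsp90b1 fell with TNFR2 at 18 h (−0.09 ± 0.034, adjusted p = 0.0383) and lost the call without any 1 library.

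Among genes outside the set, Vars, another tRNA synthetase gene, rose in all 8 comparisons, by log2 0.43 with TNFR2 at 18 h to 0.18 with DR3 at 36 h. Crebrf, a regulator of the unfolded protein response, and Sec24d, a coat protein of vesicles leaving the ER, fell in all 8, by log2 differences between −0.32 and −0.70 and between −0.39 and −1.11. Of the 63 other stress response genes, 20 rose and 4 fell with TNFR2 at 18 h, 10 and 5 with 4-1BB, 6 and 1 with DR3 and 13 and 5 with OX40. Of the 74 other ER genes these were 11 and 12, 15 and 6, 5 and 3, and 9 and 4. At 36 h the first list had 11 and 5, 11 and 2, 5 and 1, and 7 and 0 in the same order of agonists, and the second 7 and 5, 6 and 8, 2 and 3, and 3 and 2. The shares of all genes that rose and fell are those given above, and several of these counts lie near or below them: with DR3 at 18 h 9.66% of all genes rose, against 6 of 63, and with TNFR2 at 18 h 15.8%, against 11 of 74. Tnfrsf10b, a death receptor gene that CHOP can induce, rose with all 4 agonists at 18 h (log2 0.34, 0.37, 0.25 and 0.32). It is 1 of 8 tested stress targets in the first list. Of these 8, 3 rose and 1 fell with TNFR2 at 18 h, 1 and 2 with 4-1BB, 2 and 1 with DR3 and 1 and 3 with OX40. Among them Ddit4 fell with TNFR2, 4-1BB and OX40 at 18 h (log2 −0.18, −0.21 and −0.37). At 36 h Ddit4 rose with TNFR2 and DR3 (log2 0.51 and 0.36). Of the 8 stress targets 4 rose with TNFR2 at 36 h, 2 with 4-1BB, 1 with DR3 and 1 with OX40, and 0 fell with each.

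A joint test of any difference among the 4 agonist groups passed for 10 of 35 members at 18 h, when 14.3% of all genes passed, and for 4 at 36 h, when 9.06% did. The doses differ between agonists, so these differences belong to the agents as they were used. At 18 h the members were Cebpb (adjusted p = 4.77e-05), Sesn2 (7.86e-05), Phgdh (0.000498), Xbp1 (0.000512), Sdf2l1 (0.000973), Hsp90b1, Hspa5, Shmt2, Nars and Cth. Without replicate 2 of the OX40 group 6 passed. At 36 h they were Cebpb (5.35e-06), Xbp1 (0.00176), Ddit3 (0.0132) and Phgdh (0.0391), and 2 passed without replicate 2 of the TNFR2 group. For Cebpb the 18 h means were 11.8 ± 0.808 CPM without agonist, 15.7 ± 2.34 with TNFR2, 9.86 ± 0.335 with 4-1BB, 14.0 ± 2.92 with DR3 and 12.27 ± 0.846 with OX40. At 36 h they were 16.3 ± 1.65, 22.1 ± 1.54, 15.2 ± 0.28, 19.4 ± 1.02 and 15.1 ± 1.2; the TNFR2 mean was the highest at both times, but at 18 h it did not differ from that with DR3 beyond the SDs.

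Whether an agonist's effect differed between 36 h and 18 h was tested as an interaction. With TNFR2 3 members passed (Ddit3, Trib3 and Edem1; 6.69% of all genes), with 4-1BB 2 (Sesn2 and Edem1; 4.37%), with DR3 1 (Trib3; 2.31%) and with OX40 2 (Trib3 and Edem1; 3.48%). None of these passed without the libraries high in Gm42418. The difference for Ddit3 was not called with the other 3 agonists, so for those a difference between the times was not shown. Leaving out control replicate 1 at 18 h reduced the TNFR2 count to 1, the DR3 count to 0 and the OX40 count to 1.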

How the data were processed

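Sequencing was of bulk total RNA, extracted with NucleoSpin RNA XS and made into libraries with SMART-Seq v4, per the labels' protocols. The submitters' processing notes name STAR 2.5.3a, RSEM 1.2.28, Trimmomatic, FastQC and build mm10, and the sources used here give neither annotation release nor strand setting. Per the file headers, RSEM's gene tables, 1 for each library, hold expected counts, TPM and FPKM. The deposited expected counts are unscaled estimates, and the authors' TPM are scaled for effective length and depth; the deposited FPKM were not used. Of 54087 listed genes, 53973 matched 1 gene of GENCODE M21, the source of identifiers and positions. Promoter sequences are from RefSeq (GRCm38.p6).

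The promoter of Aars is not reported here. The 35 members, the other gene lists and the tests were chosen with earlier results of these data known. After rounding, expected counts went into edgeR 4.0.16 (R 4.3.3, limma 3.58.1): filterByExpr with 11 groups left 14313 genes, TMM scaling, robust quasi-likelihood fit with 1 mean per group over 32 libraries and 21 residual degrees of freedom (biological coefficient of variation 4.02%), Benjamini-Hochberg adjustment over all genes. The joint test asked for any difference among the 4 agonist groups, and interactions compared an agonist's effect at 36 h with that at 18 h. Branch levels used log2(CPM + 0.5). The fits were tested on simulated data. All members are named; of the other lists, per comparison, the 3 largest and 3 smallest called changes whose higher group reached 5 CPM and whose replicates did not overlap could be named. Replicates of every group differed by more than sampling noise, so none was counted as a duplicate. Alternatives were DESeq2 1.42.0, median-ratio scaling, no filter (27847 genes), a filter of 5 CPM in 16 libraries (9513 genes), a replicate block, the share of the ribosomal RNA locus as a covariate, leaving out 6 libraries above 10000 CPM of that locus, fits of only the compared groups, each library left out, and log2(TPM + 1) for branch levels. No molecular identifiers were used, so intervals and the floor of 3 counts cover counting error only.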

Additional observations from a re-analysis of the deposited data

Results flagged for a closer look

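For 8 member and agonist pairs the effect of the agonist differed between 36 h and 18 h by the interaction test in edgeR. For Ddit3 the effect of the TNFR2 agonist was higher at 36 h by log2 0.62 (adjusted p = 0.0123): it was −0.37 ± 0.11 at 18 h and 0.25 ± 0.12 at 36 h. For Trib3 the effect was higher at 36 h by 0.80 (adjusted p = 0.00942) with TNFR2, 0.88 (adjusted p = 0.0169) with DR3 and 0.84 (adjusted p = 0.0201) with OX40, from 18 h effects of −0.094 ± 0.15, −0.56 ± 0.16 and −0.27 ± 0.17. For Sesn2 the effect of 4-1BB differed by −0.36 (adjusted p = 0.00554), from 0.72 ± 0.067 at 18 h to 0.35 ± 0.054 at 36 h, positive at both. For Edem1 the effect was higher at 36 h by 0.17 (adjusted p = 0.00986) with TNFR2, 0.19 (adjusted p = 0.00399) with 4-1BB and 0.20 (adjusted p = 0.00624) with OX40. All 8 share the control libraries of each time, and none passed without the libraries above 10000 CPM of Gm42418, which leaves 1 control library at 18 h.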

How the results depend on the processing

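Against resting cells the counts of members called (33 at 18 h and 32 at 36 h) stayed within 1.5 times under every alternative, as did the 36 h against 18 h count of 20 and the 4 agonist counts at 36 h. The number of members called without the 6 libraries above 10000 CPM of Gm42418 was 5 for TNFR2, 5 for 4-1BB, 1 for DR3 and 4 for OX40 at 18 h (main 14, 14, 7 and 14), and 0 for each of the 4 interactions; fewer libraries were fitted. With the share of that locus as a covariate it was 8 for 4-1BB and 9 for OX40 at 18 h, and 1, 0 and 1 for the TNFR2, 4-1BB and OX40 interactions. The OX40 interaction had 1 with DESeq2, 1 with no filter and 1 with the stricter filter, the DR3 interaction 0 with the stricter filter, and the joint test at 18 h 6 when only the compared groups were fitted; the cause was not tested. DESeq2 split the OX40 calls at 18 h into 13 up and 2 down, against 10 and 4. In log2(TPM + 1) the ATF4 mean was 1.17 and 1.32 above rest at 18 h and 36 h, and the ER mean 0.573 and 0.607. Dnajc3 at 36 h against rest had −0.129 with the stricter filter (main 0.048, not called), which moved the median of the genes in common by −0.18 (by −0.17 at 18 h). The joint test was not run in DESeq2.

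Deviations of same-numbered replicates, compared between each group and its reference group, had correlations from −0.17 to 0.15. With 2 or 3 libraries per group this cannot exclude that replicates of 1 number shared an animal or a batch. The main fit used no pairing. With the replicate block OX40 at 18 h had 9 members called, and no other count moved by over 1.5 times.

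With each library left out in turn, members called ranged from 30 to 33 and 31 to 32 against rest at 18 h and 36 h, and 19 to 21 between the times. With agonists at 18 h the ranges were 11 to 18 (TNFR2), 9 to 12 (4-1BB), 5 to 7 (DR3) and 5 to 12 (OX40), and at 36 h 9 to 13, 7 to 10, 4 to 7 and 5 to 7. For the interactions they were 1 to 5, 2 to 2, 0 to 1 and 1 to 4, and for the joint tests 6 to 13 (18 h) and 2 to 5 (36 h). The TNFR2 interaction count of 3 became 1 without control replicate 1 at 18 h or TNFR2 replicate 2 at 36 h, and 5 without TNFR2 replicate 3 at 18 h. The DR3 count of 1 became 0 without that control, DR3 replicate 1 or 2 at 18 h or DR3 replicate 1 at 36 h. The OX40 count of 2 became 1 without that control or OX40 replicate 1 or 3 at 36 h, and 4 without OX40 replicate 1 at 18 h. A group left with 1 library was assumed to vary like the others. Depth limits Cth, Vldlr and Chac1, with 0, 0 and 1 counts at rest.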
